A study of Mus musculus with 8 samples.

Results

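Apoptotic cells are cleared by macrophages in a process called efferocytosis, and 7 genes of its recognition step were followed here out of 17364 genes measured. They were taken by gene symbol: Mertk, Axl and Tyro3, the TAM receptor tyrosine kinases; Gas6 and Pros1, the ligands that join those receptors to dying cells; and Mfge8 and Timd4, which bind phosphatidylserine directly. All 7 were listed in every library, and 6 had enough reads to be tested. The libraries were mRNA profiles of bone-marrow-derived macrophages, which are grown from mouse marrow, with 4 from wild-type mice and 4 from Sept2C111A mice. Both genotypes were treated alike, with 30 ng/ml TNF-α over 24 h, so untreated cells are not part of the comparison. The mutant allele carries alanine in place of a cysteine of septin 2, a GTP-binding protein of the cytoskeleton, and the series concerns SNO-Septin2 in inflamed and migrating macrophages. The labels give neither the age of the mice nor whether the replicates were separate mice or cultures, so p-values measure the spread between these libraries, which may be technical.

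Phosphatidylserine is a lipid kept on the inner face of the plasma membrane of a living cell and exposed on the outer face during apoptosis. GAS6 and protein S, the product of Pros1, carry a Gla domain whose vitamin K-dependent carboxylation lets it bind the exposed lipid, while the other end of each protein engages a TAM receptor. GAS6 can activate all TAM receptors, whereas protein S acts mainly through TYRO3 and MERTK. MERTK is the receptor best known for engulfment by resting or tolerant macrophages, AXL is known as a receptor of inflamed ones, and signalling from either dampens inflammatory cytokine production. MFG-E8 bridges the lipid to αv integrins, and TIM-4, encoded by Timd4, tethers the dying cell without signalling itself and is known mainly from tissue-resident macrophages.

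The total expected count per library ran from 19543973 to 21288521, a narrow range. Of the 12462 genes tested, 6.46% were called different between the genotypes by the quasi-likelihood test of edgeR (adjusted p under 0.05). Sept2C111A libraries 2 and 3 stood apart from all others on the first principal component, at 28.2 and 36.6 against -19.4 to 0.87, and the calls that changed without them are given below. Sept2 transcripts, listed as Septin2, measured 226 ± 7.43 CPM with the wild-type and 188 ± 18.7 CPM with the mutant allele (CPM, reads scaled to a common library total; mean ± SD, n = 4 each, as in all such pairs). The groups did not overlap, but the difference was not called (log2 fold change -0.27, edgeR adjusted p 0.063). Gene counts do not show the base change. Macrophage markers were abundant and overlapped little between genotypes in their summed level, at 25798 to 27905 CPM (wild type) and 24414 to 25848 CPM (Sept2C111A), with Lyz2 highest among them and 2 of 11 called higher. Stromal markers, led by Col1a1, were also high, with 3 of 15 tested called lower, and their sum was 6321 to 7958 CPM (wild type) and 4426 to 6321 CPM (Sept2C111A). Smooth muscle markers, led by Acta2, summed to 1192 to 1588 and 701 to 1081 CPM, with 3 of 5 called lower. Sums were at most 8.80 CPM for neutrophil markers (Ly6g, Mpo and Elane at no more than 3 reads in any library), 17.3 for dendritic cells, 24.4 for lymphocytes (mainly Cd4, which was called higher), 8.70 for endothelium (Pecam1 called higher) and 9.20 for mast cells and basophils. They reached 250 CPM for osteoclast markers, led by Mmp9, and 747 CPM for erythroid and megakaryocytic markers, most of it Pf4. As the RNA was taken from bulk cultures, fewer cells of a type and less RNA per cell cannot be told apart.

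The sequence before the transcription start was matched for all 7 genes in RefSeq's table for GRCm38.p6, the mm10 build. The 250 bases upstream of the start are shown for both ligands, of which 1 differed between the genotypes, and for the 2 abundant receptors, whose levels were highest in the same library of each genotype. Capitals mark GC boxes, the letters GGGCGG on either strand, the recognition sequence of the SP1 family. The windows are chr8:13494536-13494785 on the minus strand for Gas6, chr16:62854057-62854306 on the plus strand for Pros1, chr7:25788734-25788983 on the minus strand for Axl and chr2:128698665-128698914 on the plus strand for Mertk, each written 5′ to 3′ in the direction of transcription.
Gas6: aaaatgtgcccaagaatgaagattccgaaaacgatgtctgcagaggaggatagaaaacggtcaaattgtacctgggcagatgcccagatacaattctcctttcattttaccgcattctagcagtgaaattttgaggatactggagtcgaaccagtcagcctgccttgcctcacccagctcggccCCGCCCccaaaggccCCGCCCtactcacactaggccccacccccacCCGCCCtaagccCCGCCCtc
Pros1: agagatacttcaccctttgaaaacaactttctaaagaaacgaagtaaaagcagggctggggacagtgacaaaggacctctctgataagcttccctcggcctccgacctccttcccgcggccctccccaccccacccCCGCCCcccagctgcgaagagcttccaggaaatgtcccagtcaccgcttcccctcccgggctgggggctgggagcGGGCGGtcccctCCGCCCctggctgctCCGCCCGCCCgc
Axl: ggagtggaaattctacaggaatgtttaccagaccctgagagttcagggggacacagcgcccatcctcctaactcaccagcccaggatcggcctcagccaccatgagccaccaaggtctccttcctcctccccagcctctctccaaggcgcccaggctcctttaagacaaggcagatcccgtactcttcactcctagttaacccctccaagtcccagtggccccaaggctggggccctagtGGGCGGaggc
Mertk: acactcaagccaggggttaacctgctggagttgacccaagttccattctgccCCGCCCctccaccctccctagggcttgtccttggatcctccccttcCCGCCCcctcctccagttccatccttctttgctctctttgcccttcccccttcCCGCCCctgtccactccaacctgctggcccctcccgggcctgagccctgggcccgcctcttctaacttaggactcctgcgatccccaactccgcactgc
Gas6 held 4 GC boxes in this window, Pros1 5 (overlapping matches counted), Axl 1 and Mertk 3. Among the others, Mfge8 held 4, Tyro3 3 and Timd4 0. Of all 32851 windows of this length in the table, 32.7% held at least 1. The letters TTCNNNGAA, found in 7.02%, matched Pros1 alone. TATAAA (12.4%), the AP-1 letters TGANTCA (6.75%) and the E-box CACGTG (6.02%) matched none of the 7, and CCAAT (33.8%) matched Timd4 alone. All were searched on both strands. The GC content of all windows had a median of 52.4%, with quartiles of 45.2% and 61.2%. It was 54.8% for Gas6, 64.4% for Pros1, 60% for Axl, 63.6% for Mertk, 65.2% for Mfge8, 73.2% for Tyro3 and 50% for Timd4. The GC box holds only G and C, and its counts were not compared with windows of like GC content.

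Gas6 was the member called different, and it had more RNA in Sept2C111A cultures. Among 6 tested members 1 was called higher, where 3.43% of all tested genes were called higher, and 0 were called lower by edgeR, limma voom or DESeq2, where edgeR called 3.03% of all tested genes lower. By an unadjusted p under 0.05 there were 4 of 6, where 24.8% of all tested genes reached it. The groups of libraries did not overlap for 1 member, Gas6, which was higher, where 8.47% of all tested genes did so in that direction. With so few members a share of this kind rests on single genes, and the values of each follow.

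Gas6, the vitamin K-dependent ligand of all TAM receptors, lies on chromosome 8 at 13465374 to 13494490 (mm10, as for all positions below). It measured 346, 351, 359 and 366 CPM in wild-type libraries 1 to 4, against 422, 470, 488 and 436 CPM in libraries 1 to 4 of Sept2C111A. Every Sept2C111A library lay above every wild-type library, and the wild-type values were close together, with a coefficient of variation of 2.45%. The means were 356 ± 8.70 and 454 ± 30.5 CPM, a log2 fold change of 0.35 (SE 0.065; edgeR adjusted p 0.011). This is a 1.28-fold rise with a 95% interval of 1.16 to 1.41. Libraries 2 and 3, in which Gas6 was highest, were the Sept2C111A libraries with the lowest stromal sums (4871 and 4426 CPM). Without these 2 libraries the log2 fold change was 0.27 and remained called (adjusted p 0.023 in edgeR). The call was lost without wild-type library 1 (adjusted p 0.055) or 3 (0.051), with nearly the same fold change of 0.34 and 0.36. With the mean of the stromal markers as a covariate in edgeR, the log2 fold change was 0.22 and the call was lost (adjusted p 0.41). That score did not overlap between the genotypes, and calls over all genes went from 428 higher and 377 lower to 47 and 22 under it. The part of stromal content in the difference was not tested beyond this. Gas6 shares 34 of its 2548 exonic bases with Tmem255b on the other strand, which was at 0.17 ± 0.049 and 0.19 ± 0.11 CPM.

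Pros1, the gene of protein S and the second TAM ligand, lies on chromosome 16 at 62854307 to 62929346 and was not called. It measured 33.9, 33.6, 32.6 and 30.2 in wild-type libraries, against 31.2, 31.2, 31.4 and 34.8 CPM in the Sept2C111A libraries 1 to 4. The groups overlapped fully, with the highest and the lowest value of all 8 libraries in Sept2C111A library 4 and wild-type library 4. Its log2 fold change of -0.019 (SE 0.067) had a 95% interval of -0.17 to 0.13 (edgeR adjusted p 0.90). The interval leaves room for a change of at most 1.09-fold upward, below the lower bound for Gas6.

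**Figure D1:**
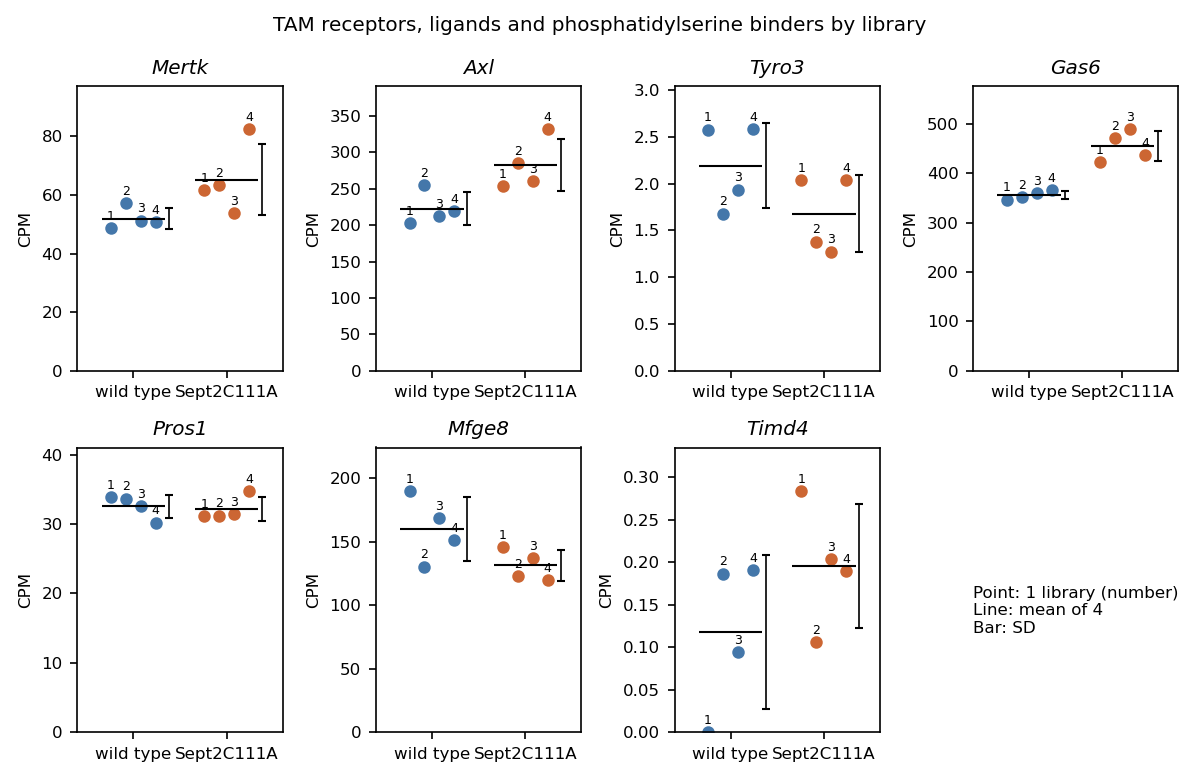
Level of each gene in every library, in CPM on an axis from 0, with wild-type libraries in blue and Sept2C111A libraries in orange; numbers are library numbers, lines are means of 4 and bars are SD. Gas6 is the panel in which the groups separate, at 346 to 366 against 422 to 488 CPM, while Pros1 lies between 30.2 and 34.8 CPM throughout.

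The balance of the ligands was examined as reads of Gas6 per read of Pros1 within a library, a quantity that does not depend on library scaling. It was 10.2, 10.5, 11.0 and 12.1 in wild-type and 13.5, 15.1, 15.5 and 12.6 in Sept2C111A libraries 1 to 4. All 4 Sept2C111A libraries were above all 4 wild-type libraries, though library 4 only narrowly. The mean log2 ratio was higher by 0.37 in Sept2C111A, and an exact two-sided permutation test over the 8 libraries gave p = 0.0286, the smallest that 4 against 4 allows. Adjusted over the 2 ratios examined it was 0.057, which did not pass. With so few libraries, a ratio at this smallest p passes only if the other ratio also has a p under 0.05.

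Axl, the TAM receptor associated with inflamed macrophages, had more RNA on average in Sept2C111A cultures but was not called. It lies on chromosome 7 at 25757273 to 25788705. Its values were 203, 255, 212 and 219 in wild-type libraries, against 254, 285, 260 and 331 CPM in the Sept2C111A libraries 1 to 4. Wild-type library 2 and Sept2C111A library 1 met at this boundary, and the other Sept2C111A libraries were above all wild-type ones. At 0.35 (SE 0.098) its log2 fold change was as large as that of Gas6, and the edgeR adjusted p was 0.062. The fold change had a 95% interval of 1.09 to 1.48, which is not adjusted for the number of genes. Axl passed in DESeq2 (adjusted p 0.015), and in edgeR without wild-type library 2 (0.046), Sept2C111A library 1 (0.048) or Sept2C111A library 3 (0.049). Its adjusted p over all alternatives ran from 0.015 to 0.48, and its log2 fold change from 0.27 to 0.42.

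Mertk, the receptor most closely tied to engulfment, lies on chromosome 2 at 128698956 to 128802894, where the antisense gene Gm14011 overlaps it. It measured 48.7, 57.2, 51.3 and 50.7 in wild-type libraries, against 61.6, 63.3, 53.7 and 82.4 CPM in the Sept2C111A libraries 1 to 4. Sept2C111A library 3 lay within the wild-type range and library 4 well above the other Sept2C111A libraries. Its log2 fold change was 0.33 (SE 0.12; 95% interval of the fold change 1.05 to 1.50), which was not called (edgeR adjusted p 0.11). Mertk passed without Sept2C111A library 3 (log2 fold change 0.41, adjusted p 0.039) and without libraries 2 and 3 together (0.47, adjusted p 0.035). Without library 4 the log2 fold change was 0.20 (adjusted p 0.096), so 1 library moved the value by over 1.5 times.

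The 2 receptors shared part of their order across libraries. Wild-type library 2 was highest for both within its genotype and library 1 lowest, and Sept2C111A library 4 was highest for both. The lowest Sept2C111A library differed, being library 1 for Axl and library 3 for Mertk, and wild-type libraries 3 and 4 changed places. Gas6 had another order, with its highest values in Sept2C111A libraries 3 and 2 and a lower one in library 4. Reads of Axl per read of Mertk were 4.17, 4.46, 4.14 and 4.32 in wild-type and 4.12, 4.50, 4.84 and 4.02 in Sept2C111A libraries 1 to 4. The groups overlapped, the difference of the mean log2 ratio was 0.029, and the exact two-sided permutation test gave p = 0.71 (0.71 adjusted over the 2 ratios). Without Sept2C111A library 3 the difference was -0.021.

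**Figure D2:**
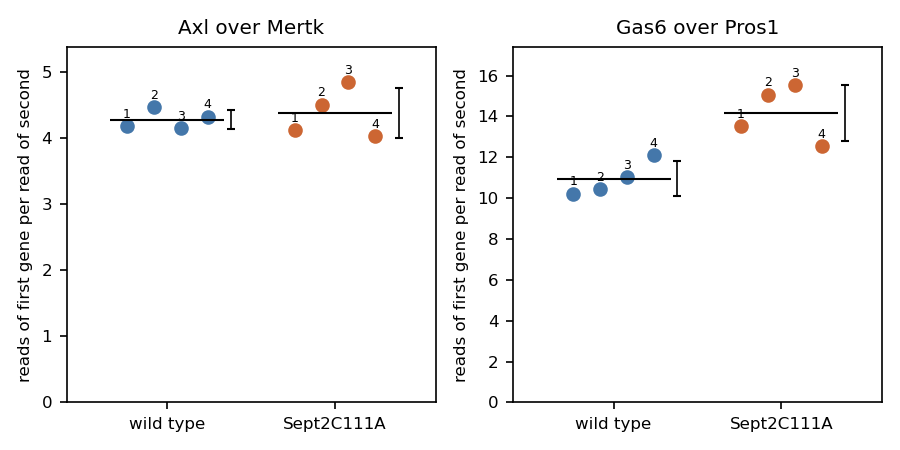
Reads of Axl per read of Mertk (left) and of Gas6 per read of Pros1 (right) in each library, on axes from 0; numbers are library numbers, lines are means of 4 and bars are SD. The receptor ratio lies between 4.02 and 4.84 in both genotypes, and the ligand ratio is 10.2 to 12.1 in wild-type and 12.6 to 15.5 in Sept2C111A libraries.

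Tyro3, the TAM receptor known mainly from the nervous system and dendritic cells, lies on chromosome 2 at 119797733 to 119818104 and was near the lower limit of testing. It had 54, 36, 41 and 54 reads in wild-type and 43, 26, 25 and 43 reads in Sept2C111A libraries 1 to 4. The groups overlapped, and the means were 2.19 ± 0.457 and 1.68 ± 0.412 CPM. Its log2 fold change of -0.38 (SE 0.22; edgeR adjusted p 0.32) had a 95% interval from -0.87 to 0.12, so the direction was not resolved at this depth.

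Mfge8, the bridge from phosphatidylserine to αv integrins, lies on chromosome 7 at 79133768 to 79149060 and had the opposite sign to Gas6. Its values were 190.2, 131, 169 and 151 in wild-type libraries, against 146, 123, 137 and 119.9 CPM in the Sept2C111A libraries 1 to 4. The groups overlapped through wild-type library 2. Its log2 fold change of -0.28 (SE 0.11; edgeR adjusted p 0.14) was called under none of 17 alternatives, and stayed negative in each. Within wild type Mfge8 was highest in libraries 1 and 3 and lowest in library 2, and the mean log2 CPM of the stromal markers was also highest in libraries 1 and 3 (6.47 and 6.43) and lowest in library 2 (6.19). Within Sept2C111A the order differed, since Mfge8 was lowest in library 4, where that score was highest (6.11). With the stromal score as a covariate the log2 fold change of Mfge8 was -0.12 (adjusted p 0.84). The integrin genes of its receptor were not called either. Itgav measured 75.0 ± 6.13 and 59.6 ± 12.1 CPM, and Itgb3 1.49 ± 0.337 and 1.03 ± 0.263 CPM, while Itgb5, another partner of αv and far more abundant than Itgb3, measured 297 ± 8.29 and 313 ± 10.3 CPM (log2 fold change 0.076). These 3 genes were named after their values were seen.

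Timd4, the phosphatidylserine tether of resident macrophages, lies on chromosome 11 at 46810800 to 46844332 and had almost no reads. Its counts were 0, 4, 2 and 4 in wild-type and 6, 2, 4 and 4 in Sept2C111A libraries 1 to 4, where 3 reads correspond to 0.14 to 0.16 CPM. It was removed by the filter on low counts and no comparison was detectable at this depth.

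**Figure D3:**
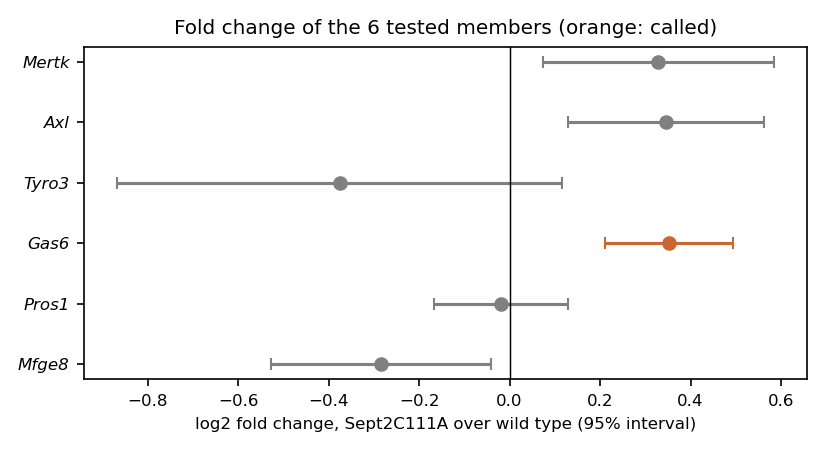
Log2 fold change of Sept2C111A over wild type for the 6 tested genes, with 95% intervals of each gene alone; orange marks the gene called after adjustment over 12462 genes. Gas6, Axl and Mertk lie at 0.33 to 0.35 and differ mainly in the width of the interval, Pros1 lies at -0.019, and Tyro3 and Mfge8 lie below 0.

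Levels of different genes were compared as CPM per kilobase of exonic sequence (all annotated exons of the gene). In wild-type libraries Gas6 stood first at 140 ± 3.41 CPM per kilobase, followed by Axl at 44.2 ± 4.51, Mfge8 at 34.1 ± 5.40, Mertk at 12.0 ± 0.841, Pros1 at 7.97 ± 0.408, Tyro3 at 0.35 ± 0.074 and Timd4 at 0.054 ± 0.042. The ranges of Axl and Mfge8 touched, at 40.3 to 50.7 and 27.8 to 40.5, and all other neighbours were separate. In Sept2C111A libraries the order was the same, with Gas6 at 178 ± 12.0, Axl at 56.1 ± 6.98, Mfge8 at 28.0 ± 2.62 and Mertk at 15.1 ± 2.80 CPM per kilobase, and the ranges of Axl and Mfge8 were apart. The place of Mfge8 depends on the length used. Per kilobase of its longest coding transcript it was at 75.4 in wild type, above Axl at 52.1, and in Sept2C111A at 61.9, below Axl at 66.2. In these cultures the ligand Gas6 was therefore the most abundant of the 7 transcripts per length under either measure, and Axl exceeded Mertk in every library.

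The call of Gas6 was examined under 17 other processing choices, and it held in 14 of them. The log2 fold change was positive in all 17, from 0.22 to 0.39.

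**Figure D4:**
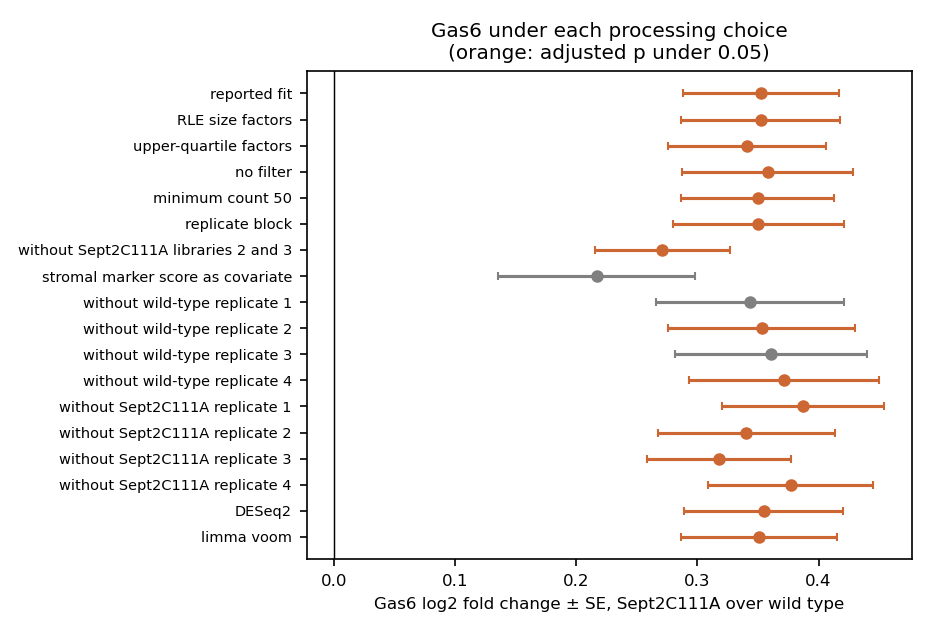
Gas6 log2 fold change of Sept2C111A over wild type with its SE under the reported fit and 17 alternatives; orange marks an adjusted p under 0.05. The 3 grey points are the fits without wild-type library 1, without wild-type library 3, and with the stromal marker score as a covariate.

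Mean levels of stromal and smooth muscle markers were lower in every Sept2C111A library than in any wild-type library. The sum of endothelial markers, low and led by Pecam1, went the other way, at 6.65 to 7.15 CPM (wild type) and 7.79 to 8.70 CPM (Sept2C111A). Its genes were divided. Cdh5 (0.69 ± 0.12 and 0.48 ± 0.19 CPM) and Vwf (1.94 ± 0.277 and 1.45 ± 0.323 CPM) were lower on average in Sept2C111A. Pecam1, Kdr, Egfl7, Emcn, Cldn5 and Tek were higher on average, and of the list Pecam1 alone was called. The lymphocyte sum, mainly Cd4, was also higher, at 15.2 to 16.5 and 19.1 to 24.4 CPM. Sums of the other non-macrophage lists overlapped between the genotypes. The mean log2 CPM of 15 stromal markers was 6.19 to 6.47 in wild-type libraries, and 6.10, 5.62, 5.58 and 6.11 in Sept2C111A libraries 1 to 4. That of 5 smooth muscle markers was 5.24 to 5.63 in wild-type and 4.25 to 5.05 in Sept2C111A libraries. Gas6, Axl and Mertk were thus higher on average in the genotype with less stromal signal. Within wild type, Axl and Mertk were highest in library 2, with the lowest stromal score (6.19), and lowest in library 1, with the highest (6.47). Among Sept2C111A libraries both were instead highest in library 4, where the score was highest (6.11). With the stromal score as a covariate the log2 fold change of Axl was 0.35 (SE 0.15, adjusted p 0.48 in edgeR), much as without it. That of Mertk was 0.51 (SE 0.16, adjusted p 0.27 in edgeR), larger than without it. That of Gas6 was 0.22 (SE 0.081), smaller than without it. The score did not overlap between the genotypes, so these fits separate it poorly from genotype. Whether the shifts differ between the genes was not tested. In edgeR with all 8 libraries, neither receptor was called with or without the score.

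**Figure D5:**
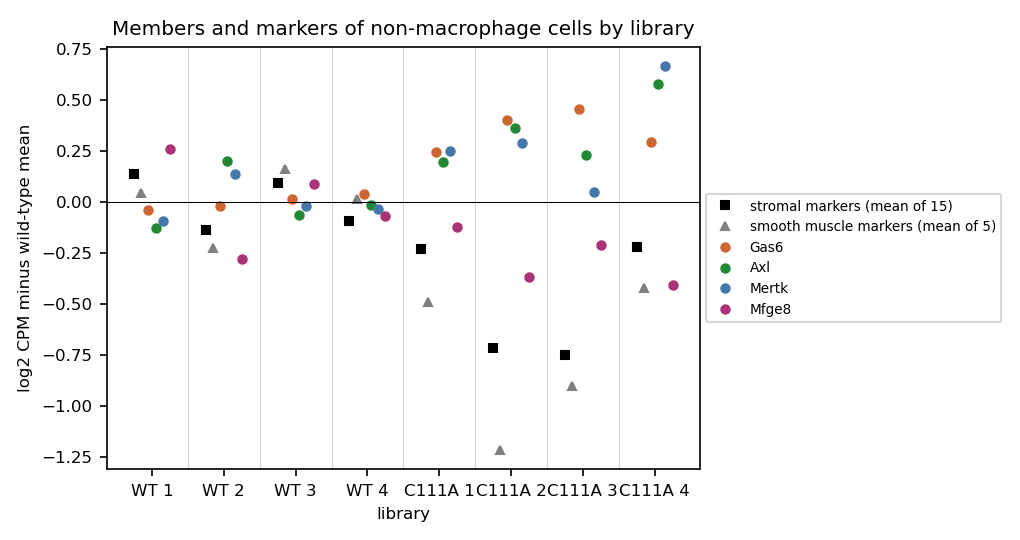
Log2 CPM of Gas6, Axl, Mertk and Mfge8 and the mean log2 CPM of stromal and smooth muscle markers in each library, each minus its own wild-type mean. Marker scores are below 0 in all Sept2C111A libraries, lowest in 2 and 3, while Gas6, Axl and Mertk are above 0 in all of them.

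Of 9430 named genes that averaged 5 CPM or more, those whose profile over the 8 libraries was nearest to that of Gas6 were Lgmn, Psap and Naglu. Likeness was the root mean square difference between mean-centred log2 CPM values, which was 0.033, 0.035 and 0.036. Lgmn, the lysosomal protease legumain, measured 1084 ± 38.9 and 1430 ± 116 CPM. Psap, the precursor of the saposins that assist sphingolipid breakdown, measured 11092 ± 273 and 14141 ± 1217 CPM. Naglu, a lysosomal glucosaminidase, measured 95.1 ± 1.65 and 120.1 ± 11.4 CPM. Their direction and size follow from their choice by likeness to Gas6 and are given as a description, with log2 fold changes of 0.40, 0.35 and 0.34.

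Around the 7 genes, 9 lists of related genes were read from the same fit. They held 117 different tested genes, of which 12 were called higher and 3 lower, or 12.8%, where 6.46% of all tested genes were called; the lists were drawn up with earlier results of these data known, so nothing is read from the excess. Their median log2 fold change was -0.041, and that of all tested genes 0.0086. These counts changed with the libraries kept, and calls over all genes changed as well. With all libraries 428 of all tested genes were called higher and 377 lower. Without wild-type library 1 these were 166 and 115, and without Sept2C111A library 4 they were 1094 and 983. The list counts were 2 higher and 1 lower without wild-type library 1, 5 and 1 without library 2, 3 and 1 without library 3, and 5 and 2 without library 4. Without Sept2C111A library 2 they were 6 and 3, and without library 4 they were 22 and 16. They were 5 and 3 with the replicate block, 7 and 5 without Sept2C111A libraries 2 and 3, 20 and 11 in DESeq2, and 0 and 0 with the stromal covariate. Under that covariate every call of a list gene was lost, and other losses are given with each list. Among the list genes named below, the calls lost without Sept2C111A libraries 2 and 3 were those of Havcr2 (adjusted p 0.11), Cd300lf (0.060), C4b (0.084), Pecam1 (0.10) and Pik3c3 (0.20), all by edgeR. Of these, Pik3c3 also shrank by over 1.5 times, to a log2 fold change of 0.19. Lgals3 kept its call (adjusted p 0.046 in edgeR) but likewise shrank by over 1.5 times, from 0.48 to 0.27.

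Of 15 tested receptors for phosphatidylserine or its bridges, 4 rose, 0 fell and 11 did not pass, with a median log2 fold change of 0.19. Cd300a, an inhibitory receptor that binds the lipid, rose from 133 ± 8.55 to 187 ± 23.8 CPM (edgeR adjusted p 0.012, log2 fold change 0.49). Its values were 120.5, 136, 138 and 139 in wild-type libraries, against 162, 192, 217 and 176 CPM in the Sept2C111A libraries, and its call was also lost without wild-type library 1 (adjusted p 0.054). Havcr2, the gene of TIM-3, rose from 3.74 ± 0.626 to 5.98 ± 0.911 CPM. Cd300lf, a lipid-binding member of the Cd300 family like Cd300a, rose from 0.47 ± 0.16 to 1.15 ± 0.317 CPM. It had few reads, 5 to 12 in wild-type and 14 to 28 in Sept2C111A libraries. Stab2, a scavenger receptor gene named after its values were seen, rose from 3.33 ± 0.360 to 4.98 ± 0.856 CPM. Its groups overlapped, at 3.77 CPM in wild-type library 4 and 3.71 CPM in Sept2C111A library 2. Stab1 of the same list, far more abundant, went the other way, at 1147 ± 12.2 and 992 ± 106 CPM without overlap. It was not called (adjusted p 0.14 in edgeR) and was also named after its values were seen. The calls of Havcr2, Cd300lf and Stab2 were lost in 8 to 10 of the alternatives each, and omission of wild-type library 1, 2 or 3 ended every one of them. Cd300 genes are related copies, and how reads were divided between them is not certain.

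Among 14 tested soluble bridging or opsonizing molecules, 2 rose and 0 fell, with a median log2 fold change of -0.096. Lgals3, the gene of galectin-3, which has been described as a further MERTK ligand, rose from 2030 ± 104 to 2840 ± 518 CPM, a call that ended on omission of any one wild-type library or Sept2C111A library 2, and with the replicate block. C4b, a complement component with a close copy in the mouse, rose from 0.82 ± 0.23 to 1.64 ± 0.330 CPM and lost its call in 10 of 16 alternatives. Of 28 engulfment genes, 1 rose and 0 fell, at a median of -0.020. It was Pik3c3, the lipid kinase VPS34 of phagosome maturation (32.7 ± 1.48 to 40.7 ± 4.18 CPM), and its call was lost in 12 of 17 alternatives.

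Of 7 genes of the vitamin K cycle and Gla protein processing, 0 were called by edgeR or limma voom, 2 had an unadjusted p under 0.05, and DESeq2 called 2 lower. The median log2 fold change was -0.093. For this list and the next, the share beside these counts is 24.8% of all tested genes with an unadjusted p under 0.05 in edgeR. DESeq2 also called more of all genes than edgeR did, as given below. Calu, the most abundant, encodes calumenin, an inhibitor of carboxylation, and measured 217 ± 12.1 and 179 ± 23.3 CPM. Of 6 genes of receptor shedding, 0 were called by edgeR or limma voom, 2 had an unadjusted p under 0.05, and DESeq2 called 1 lower, at a median of -0.11. Timp3, a metalloprotease inhibitor and the most abundant, measured 537 ± 28.9 and 521 ± 119 CPM. Adam17, the protease that sheds MERTK from the cell surface, measured 445 ± 28.2 and 374 ± 38.6 CPM without overlap and was not called (adjusted p 0.095 in edgeR). It was named after its values were seen.

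Of 15 tested nuclear receptors and other regulators of efferocytosis genes, 4 rose and 0 fell, with a median log2 fold change of 0.13. Irf8, a lineage factor of myeloid cells, rose from 116 ± 3.50 to 157 ± 14.9 CPM (edgeR adjusted p 0.0070, log2 fold change 0.44). Pparg, a fatty acid-sensing receptor whose activity favours efferocytosis, rose from 18.5 ± 0.996 to 26.0 ± 2.65 CPM (edgeR adjusted p 0.0093, log2 fold change 0.49). Its values were 17.5, 18.4, 19.9 and 18.3 in wild-type libraries, against 22.5, 25.4, 28.3 and 27.8 CPM in the Sept2C111A libraries, with no overlap. Rxra, the partner with which PPARγ and the liver X receptors bind DNA, rose from 125 ± 1.66 to 154 ± 6.14 CPM. The calls of Irf8 and Pparg held in 16 of 17 alternatives, the stromal covariate being the exception, and that of Rxra was also lost without wild-type library 1 or 3. Nr1h3, the gene of liver X receptor α, which is known to act on Mertk, measured 86.7 ± 8.01 and 116 ± 20.3 CPM and was not called (adjusted p 0.061 in edgeR). Nr1h3 was named after its values were seen.

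Of 9 tested don't-eat-me genes, 1 rose and 0 fell, at a median of 0.037. Pecam1, an adhesion molecule by which viable cells detach from a phagocyte, rose from 2.92 ± 0.0968 to 4.02 ± 0.216 CPM, a call that 12 of 17 alternatives did not give. Of 14 tested genes of phosphatidylserine exposure, 1 fell and 0 rose, at a median of -0.063. It was Xkr8, the caspase-activated scramblase (28.2 ± 0.904 to 22.5 ± 1.70 CPM), whose call ended on omission of any one wild-type library and with the replicate block. Of 9 tested feedback genes reported downstream of TAM signalling, 2 fell and 0 rose, at a median of -0.20. Socs3, which inhibits cytokine receptor signalling, fell to 40.3 ± 9.34 CPM from 90.7 ± 4.35 CPM in wild type (edgeR adjusted p 0.0011, log2 fold change -1.17). Tnfaip3, the gene of the NF-κB inhibitor A20, fell from 146 ± 9.25 to 101 ± 20.1 CPM, a call that ended on omission of any one wild-type library, or of Sept2C111A library 2. Both genes are also induced by TNF, which every culture had received.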

How the data were processed

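The authors deposited 1 table of expected counts per library, which are estimated reads per gene symbol and need not be whole. Bowtie2, RSEM 1.3.1, DESeq2 1.4.5 and mm10 are named per the submitters' processing notes, without roles, and mRNA enrichment on oligo(dT) beads per the labels' protocols. No source used here gives the annotation, strandedness or filters, and unstranded reads of genes that overlap on opposite strands cannot be told apart.

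Counts were rounded, filtered with filterByExpr (minimum count 10), scaled by TMM and tested in edgeR 4.0.16 (R 4.3.3) by its two-sided quasi-likelihood test, with genotype alone in the model and Benjamini-Hochberg adjustment over 12462 genes. CPM uses normalized library sizes. Ratios were tested by exact permutation of the 8 libraries. Lists were described by counts and medians. Alternatives covered RLE and upper-quartile scaling, no filter, a minimum count of 50, a replicate block, each library left out, Sept2C111A libraries 2 and 3 left out, a stromal covariate (15 markers), DESeq2 1.42.0 and voom in limma 3.58.1. Named genes are the 7 members, up to 3 called genes of each list by adjusted p or else its most abundant gene, the 3 genes nearest to a called member, and the most abundant marker of each cell type. The members and lists were chosen with earlier results of these data known. The values of 1 called list gene are not reported here. Gene positions and exon lengths are from GENCODE M21 on the same assembly.

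No library was a copy of another, since the mean chi-square per gene between any 2 was at least 3.87, where counting noise gives about 1. A count of 3 lies at 0.14 to 0.16 CPM, and this limit covers counting error only.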

Additional observations from a re-analysis of the deposited data

Results flagged for a closer look

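In 1 of 16 groups of 4 libraries examined over the 6 tested members and the 2 ratios, a library lay far from the others by Dixon's gap test. This was Pros1 in Sept2C111A library 4, at 34.8 CPM, where the other Sept2C111A libraries were at 31.2 to 31.4 CPM. Chance gives such a gap in about 1 of 20 groups. The value is close to the highest wild-type value, 33.9 CPM.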

How the results depend on the processing

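RLE or upper-quartile scaling, no filter, the stricter filter and limma voom changed no direction or call among the members (Tyro3 was not tested under the stricter filter). Without single libraries the log2 fold change ran from 0.32 to 0.39 for Gas6, from 0.27 to 0.42 for Axl, from 0.20 to 0.41 for Mertk and from -0.053 to 0.0036 for Pros1. Members called higher then numbered 0 to 3, list genes 2 to 22 higher and 1 to 16 lower, and all genes 162 to 1094 higher and 104 to 983 lower, and the log2 difference of the Axl over Mertk ratio ran from -0.021 to 0.068. Without Sept2C111A libraries 2 and 3, Mertk was at 0.47 and called, Pros1 at 0.018, members called higher were 2, list genes 7 higher and 5 lower, all genes 282 and 210, and the Axl over Mertk difference was -0.070. With the stromal score, Gas6 was at 0.22 and not called, Tyro3 at 0.13 and Pros1 at 0.055, with 0 members, 0 list genes higher, 0 lower, and 47 and 22 of all genes called. In DESeq2 Axl was called at 0.35, with 2 members, 20 and 11 list genes and 693 and 709 of all genes. The cause of these changes was not tested. Deviations of same-numbered libraries correlated at 0.14, 0.096, -0.023 and -0.24 over genes. Between differently numbered libraries the correlations ran from -0.22 to 0.25. Pairing by number was thus not seen, but these values cannot exclude it. With the replicate block Gas6 stayed called (log2 fold change 0.35, adjusted p 0.037 in edgeR). List genes called higher were then 5 and all genes called higher 242, in a fit that spends more degrees of freedom. Under the block the ratios kept their values, 0.029 and 0.37. They were tested by flipping signs within the 4 pairs of numbers, where even the smallest possible p is above 0.05. Neither ratio could pass there, whatever its values. Depth limits Timd4 and Tyro3 most.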

Other observations

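Vsig4, the complement receptor of resident macrophages that takes up C3b-coated particles, rose from 0.46 ± 0.13 to 1.54 ± 0.201 CPM (edgeR adjusted p 0.0026, log2 fold change 1.72). It measured 0.38, 0.65, 0.42 and 0.38 in wild-type libraries, against 1.66, 1.48, 1.73 and 1.28 CPM in the Sept2C111A libraries 1 to 4, without overlap, and was named after its values were seen. Trem2, a lipid-sensing receptor, measured 643 ± 36.4 and 856 ± 168 CPM and Tyrobp, the adaptor through which it signals, 862 ± 46.3 and 1084 ± 185 CPM. Both were named after their values were seen, neither was called (adjusted p 0.067 and 0.092 in edgeR), and in both the groups did not overlap.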
